A study of Mus musculus with 14 samples.

Results

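The Schlafen genes of the mouse encode a family of proteins named for their effect on lymphocyte growth, and 7 of them, Slfn1, Slfn2, Slfn3, Slfn4, Slfn5, Slfn8 and Slfn9, were followed here through the transcriptomes of bone marrow-derived macrophages. They were picked out by symbol, through the Ensembl identifiers of the deposited count table, and account for 7 of its 47937 rows. The set was chosen from the levels of these same 14 libraries, with the contrasts between trap supernatant, mast cell supernatant and no treatment in view, so the differences between those groups are given below as descriptions and carry no test. All 7 passed the filter on low counts, as did 13061 genes in all.

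Schlafen genes are induced by type I interferons and by Toll-like receptor ligands in macrophages. The short forms, Slfn1 and Slfn2, consist of little more than the conserved N-terminal part of the family, the intermediate forms Slfn3 and Slfn4 add a linker region, and the long forms Slfn5, Slfn8 and Slfn9 carry in addition a C-terminal domain related to helicases. Slfn2 is known for keeping T cells quiescent, since T cells and monocytes of mice with a mutant Slfn2 fail to survive normally on activation, and Slfn4 is known as a myeloid member whose transcript falls as macrophages differentiate and is induced by lipopolysaccharide and type I interferon.

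The macrophages carried the genotype WT and had been exposed for 3.5 hours to the supernatant of mast cell intracellular traps (called trap supernatant here; 3 libraries), to the supernatant of mast cells (5 libraries), or to neither (6 libraries, labelled untreated). The title of the series places the traps in the setting of neutrophils held by mast cells. Each group was spread over 3 batches, with 1 trap library in each batch, 2, 1 and 2 mast cell supernatant libraries in batches 1, 2 and 3, and 2 untreated libraries in each. The libraries were made from polyadenylated RNA with a stranded kit. Strain, sex, age and the number of animals are not given in the labels used here, and it is not stated whether libraries of a batch came from separate cultures, so a p-value below measures the spread between libraries, which may in part be technical.

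Total counts ran from 11729073 to 22720419 per library, and the 7 members took 6353 to 17860 of them. All 10 macrophage markers averaged over 1 CPM (counts scaled to library size, by TMM factors) in untreated cells. Of the lists of other cell types, that of mast cells moved with the groups: its 12 genes summed to 84.0, 750.1 and 1997 CPM in the 3 trap libraries, to 82.0 to 1392 CPM in the mast cell supernatant libraries and to 5.81 to 9.05 CPM in untreated libraries, and none of the 12 was at 0 in all libraries. The part of such RNA in the Schlafen levels was not tested. Over the 14 libraries, the correlation of each member with this sum, both as log2 levels centred on their batch, lay between -0.50 (Slfn9) and -0.09 (Slfn3), as a description of libraries that share their groups. In bulk RNA, fewer cells of a type and less RNA per cell cannot be told apart.

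The 7 genes lie within 263.8 kb of chromosome 11 (GRCm38, chr11:82951349-83215154, GENCODE M21), with the pseudogene Slfn10-ps between Slfn8 and Slfn2. Slfn5, Slfn2, Slfn1, Slfn4 and Slfn3 are on the forward strand, and Slfn9 and Slfn8 on the reverse strand. The longest annotated proteins have 337 residues for Slfn1, 378 for Slfn2, 602 for Slfn4, 640 for Slfn3, 884 for Slfn5 and 910 for both Slfn8 and Slfn9. In the 250 bases before the RefSeq transcript starts (GRCm38.p6, all 7 members matched), the long forms held a pair of GAAA with 2 bases between them, on either strand, which is the core of the element that interferon regulatory factors recognise. It was present in Slfn5, Slfn8 and Slfn9, thus in 3 of 7 members, and in 3.46% of the 27025 genes with such a window. The whole windows of Slfn8 and Slfn9, the closest relatives among the long forms, are shown to let them be compared, with the pair in capitals. It is read on the opposite strand there and so appears as paired TTTC. In Slfn8 it lies 48 to 39 bases before the first of its RefSeq starts, and in Slfn9 45 to 36 bases before the start. The 2 windows are 79.8% identical.
Slfn8, chr11:83020811-83021060, reverse strand: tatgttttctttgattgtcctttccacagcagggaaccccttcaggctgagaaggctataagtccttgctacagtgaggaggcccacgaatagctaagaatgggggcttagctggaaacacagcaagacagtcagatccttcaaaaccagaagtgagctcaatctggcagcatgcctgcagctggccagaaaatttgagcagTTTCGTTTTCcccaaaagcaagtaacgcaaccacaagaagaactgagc
Slfn9, chr11:82991831-82992080, reverse strand: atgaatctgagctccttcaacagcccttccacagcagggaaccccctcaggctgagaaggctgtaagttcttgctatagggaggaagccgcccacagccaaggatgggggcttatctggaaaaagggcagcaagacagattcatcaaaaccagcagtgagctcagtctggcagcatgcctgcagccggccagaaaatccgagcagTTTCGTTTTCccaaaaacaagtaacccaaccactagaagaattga
In Slfn5, the pair lies 155 to 146 bases before the RefSeq start and is shown with 30 bases on each side. The GENCODE gene starts earlier, at chr11:82951349, so this window lies inside the annotated gene.
Slfn5, chr11:82951917-82951986, forward strand: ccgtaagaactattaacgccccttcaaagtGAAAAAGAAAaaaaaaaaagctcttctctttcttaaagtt

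The short and intermediate forms shared another stretch, CTTCCTGG, chosen after their sequences had been seen and therefore only a description of these windows. It occurred on the strand of the gene, within the last 73 bases before the start, in Slfn1, Slfn2, Slfn3 and Slfn4, and in none of the long forms. Over all genes, 3.82% held it on one of the strands. The whole windows of these 4 genes were 42.3% (Slfn2 and Slfn4) to 49% (Slfn2 and Slfn3) identical in pairs. Their pairs with a long form had 40.7% (Slfn4 and Slfn9) to 49.1% (Slfn1 with Slfn5 or Slfn9). The 4 sites are set out with 30 bases on each side, so that their surroundings can be compared.
Slfn2, chr11:83065028-83065095, forward strand: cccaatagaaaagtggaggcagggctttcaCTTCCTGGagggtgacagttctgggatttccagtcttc
Slfn1, chr11:83116717-83116784, forward strand: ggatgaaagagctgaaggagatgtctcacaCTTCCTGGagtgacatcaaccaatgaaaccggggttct
Slfn4, chr11:83175084-83175151, forward strand: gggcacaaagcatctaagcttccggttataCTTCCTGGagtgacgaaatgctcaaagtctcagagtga
Slfn3, chr11:83191259-83191326, forward strand: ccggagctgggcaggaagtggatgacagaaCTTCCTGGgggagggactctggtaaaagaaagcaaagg
The GAAA pair with 1 base between was found in Slfn4 only, against 3.13% of genes. Both strands were searched for each motif given here, and a match is a run of letters, not a bound site.

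Slfn2 dominated the family. It took 70.8% to 84.2% of the member counts of a library. Per kb of exon, its level averaged 395.5 ± 125.2 CPM in trap libraries, 383.2 ± 138.9 CPM in mast cell supernatant libraries and 384.7 ± 21.9 CPM in untreated libraries (SD, n = 3, 5 and 6). Next in untreated cells came Slfn5 at 19.2 ± 5.12 CPM per kb and Slfn8 at 18.0 ± 3.87 CPM per kb, whose spreads overlapped. Slfn9 stood at 2.90 ± 0.68 CPM per kb and Slfn3 at 1.54 ± 0.25 CPM per kb. Slfn1 at 0.91 ± 0.58 and Slfn4 at 0.41 ± 0.14 CPM per kb came last, and their spreads overlapped too. Slfn4 had 365 counts and Slfn1 367 counts in all 14 libraries together, so that their values rest on few reads.

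**Figure D1:**
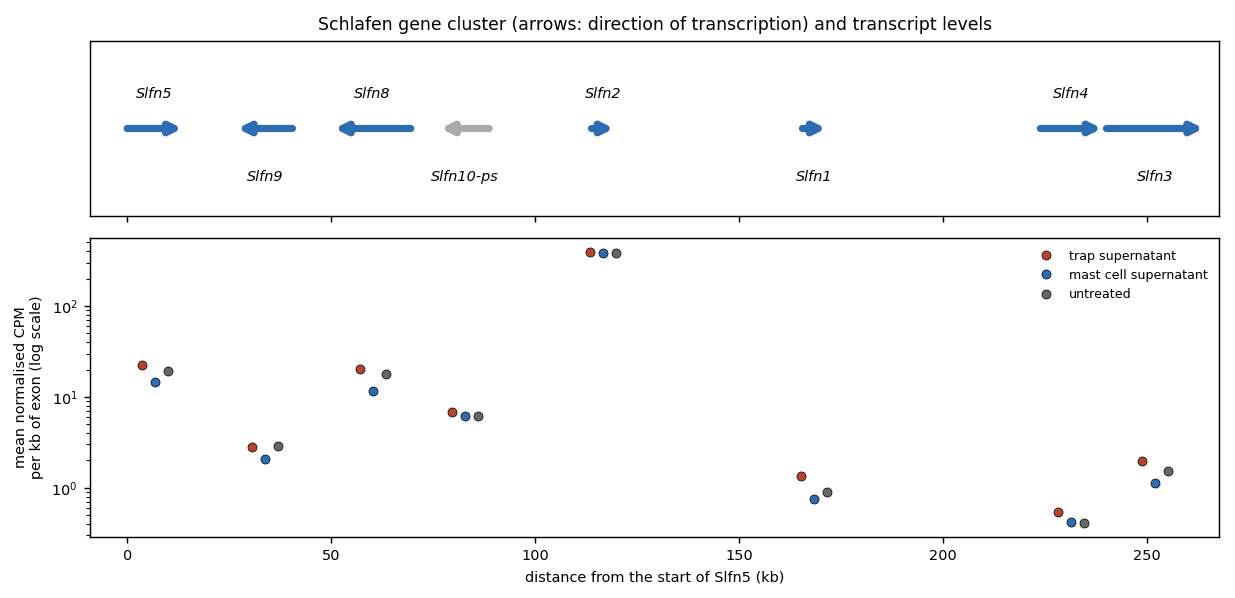
The upper panel maps the Schlafen cluster by distance in kb from the start of Slfn5, with arrows in the direction of transcription (blue, the 7 members; grey, the pseudogene Slfn10-ps), and the lower panel gives each gene's mean normalised CPM per kb of exon on a log axis in trap supernatant, mast cell supernatant and untreated libraries, set side by side around the middle of the gene. Slfn2 stands at 395.5, 383.2 and 384.7 CPM per kb, and Slfn5 and Slfn8 show their lowest mean in mast cell supernatant.

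The question of the design is whether the supernatant of traps acts on macrophages differently from that of mast cells alone. No gene at all passed between trap and mast cell supernatant (percent called, 0% of 13061 genes, edgeR's quasi-likelihood test, adjusted p under 0.05; 569 genes had an unadjusted p under 0.05, limma-voom called 0 and DESeq2 called 11). None of the 7 members was called by any of these tools. What follows describes the members' levels, which chose them.

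Slfn8, a long form, was lower with mast cell supernatant than with trap supernatant in every batch. Its levels were 110.0, 76.3 and 61.8 CPM in the trap libraries of batches 1, 2 and 3. With mast cell supernatant they were 61.1 and 58.4 CPM in batch 1, 40.5 CPM in batch 2 and 39.1 and 37.4 CPM in batch 3, while the untreated libraries ran from 56.8 over a median of 74.3 to 93.4 CPM. Every trap library thus lay above every mast cell supernatant library, although the margin between the lowest trap library and the highest mast cell supernatant library was under 1 CPM. The log2 difference, trap minus mast cell supernatant, was 0.82 ± 0.26 (SE of the fit with batch as a term), and 0.88, 0.91 and 0.69 within batches 1, 2 and 3. Without the trap library of batch 1 it was 0.55.

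Slfn5, the other long form of middle abundance, had 195.3, 120.8 and 112.2 CPM in the trap libraries of batches 1, 2 and 3. Mast cell supernatant libraries had 124.6 and 97.2 CPM in batch 1, 72.3 CPM in batch 2 and 79.7 and 85.4 CPM in batch 3, and untreated libraries ran from 88.5 over 108.8 to 167.8 CPM. The trap and mast cell supernatant groups overlapped, through 1 mast cell supernatant library of batch 1, but within each batch the trap library was the higher. The log2 difference was 0.69 ± 0.24, with 0.83, 0.74 and 0.44 in the 3 batches.

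Slfn3, an intermediate form, had 8.85, 5.59 and 5.96 CPM in the trap libraries of batches 1, 2 and 3. It had 4.13 and 3.50 CPM in batch 1, 4.57 CPM in batch 2 and 3.57 and 3.65 CPM in batch 3 with mast cell supernatant, and 4.39 to 6.48 CPM (median 5.08) without treatment. As for Slfn8, no mast cell supernatant library reached the lowest trap library. The log2 difference was 0.79 ± 0.18, made up of 1.21, 0.29 and 0.72 in the batches. Of 13061 genes, 0.628% were higher in every trap library than in every mast cell supernatant library, and Slfn3 and Slfn8 were the 2 of 7 members among them. Higher in each of the 3 batches were 4 of 7 members (Slfn1, Slfn3, Slfn5 and Slfn8), against 11.9% of all genes. The rule that chose the members looked at this contrast, and nothing is read from these shares.

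Slfn2, the quiescence factor, had the trap and mast cell supernatant levels nearest to each other. Trap libraries had 894.0, 581.2 and 499.3 CPM in batches 1, 2 and 3. Mast cell supernatant libraries had 813.7 and 930.4 CPM in batch 1, 601.5 CPM in batch 2 and 452.8 and 389.7 CPM in batch 3. Untreated libraries kept within 592.1 and 698.3 CPM (median 639.6). Both supernatants were therefore above untreated cells in batch 1 and below them in batch 3. The log2 difference between trap and mast cell supernatant was 0.07 ± 0.22, and its sign turned when 1 library was left out, either the trap library of batch 1 (-0.08) or a mast cell supernatant library of batch 3.

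Slfn9, the closest relative of Slfn8 among the long forms, had 22.9, 17.5 and 10.1 CPM in the trap libraries of batches 1, 2 and 3. With mast cell supernatant it had 15.1 and 12.9 CPM in batch 1, 18.8 CPM in batch 2 and 7.56 and 8.04 CPM in batch 3, and without treatment 12.6 to 23.0 CPM (median 16.6). In batch 2 the trap library was thus the lower of the pair, where Slfn8 had the trap library higher; whether the 2 genes differ was not tested, and their batch-centred log2 levels correlated at 0.830 over 14 libraries. The log2 difference was 0.37 ± 0.18, and 0.06 without the trap library of batch 1. Of the 50-base words in their exons, 14.6% for Slfn8 and 11.2% for Slfn9 also occurred in another Schlafen gene. The share was 19.7% for Slfn10-ps, 8.15% for Slfn4, 7.39% for Slfn3, 4.27% for Slfn2, 0.606% for Slfn1 and 0% for Slfn5. Slfn4 shared 69 words with the far more abundant Slfn2. Reads lying wholly within such stretches cannot be told apart by sequence, and how the authors counted them is not given. Their part in the levels of Slfn4 and the other members was not tested.

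The least abundant members varied most. Slfn1 had 3.94, 1.57 and 2.02 CPM in trap libraries, 0.40 to 2.89 CPM in mast cell supernatant libraries and 0.69 to 3.76 CPM in untreated libraries, a log2 difference between trap and mast cell supernatant of 1.01 ± 0.49. Slfn4 had 4.47, 0.84 and 1.13 CPM in trap libraries, 0.86 to 2.73 CPM in mast cell supernatant libraries and 0.75 to 2.46 CPM in untreated libraries. Its log2 difference, 0.38 ± 0.40, was 1.25 in batch 1 and negative in batches 2 and 3 (-0.03 and -0.53), and it became -0.47 without the trap library of batch 1. The median log2 difference of the 7 members was 0.69, beside 0.000894 over all genes tested. The members were chosen with this contrast in view, so nothing is read from these medians.

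**Figure D2:**
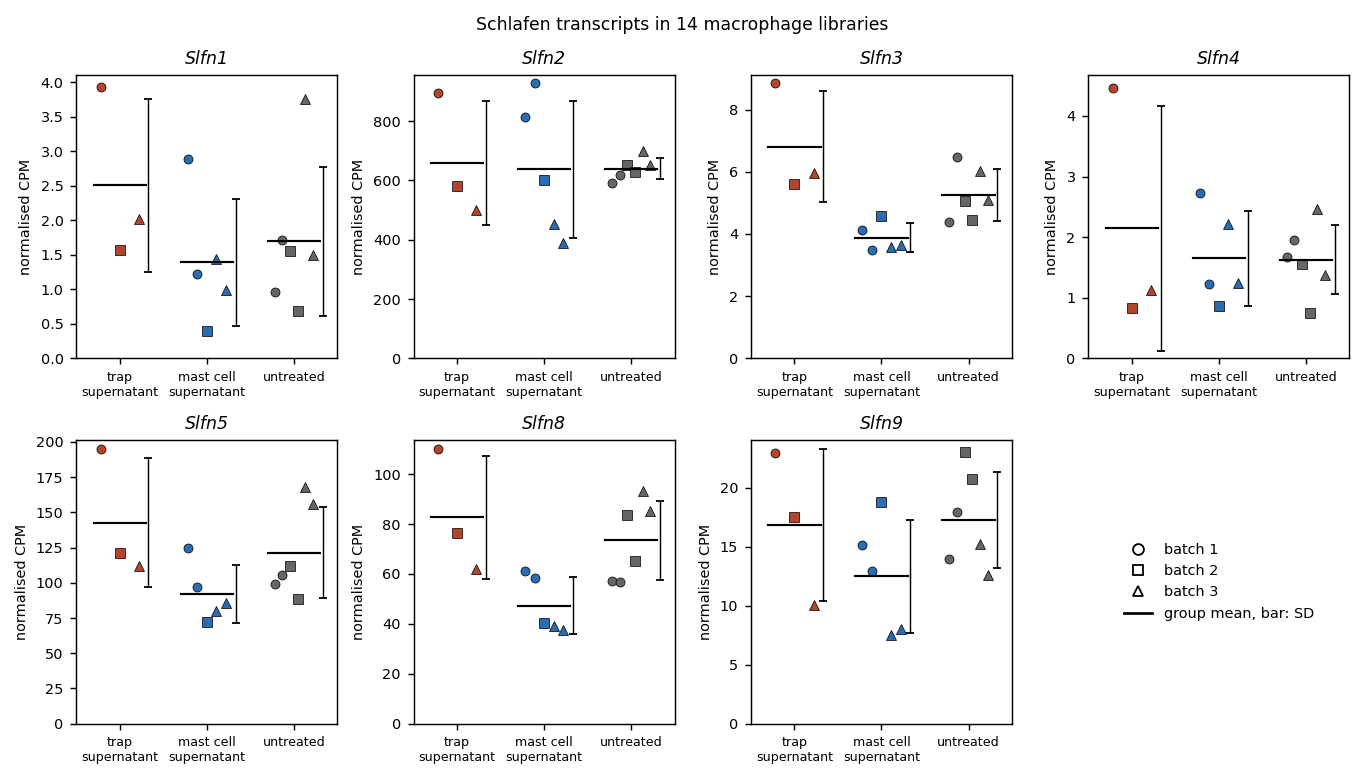
Normalised CPM of the 7 members in each of 14 libraries, by group (trap supernatant, mast cell supernatant, untreated; n = 3, 5 and 6), with symbols for batches 1 to 3, lines for group means and bars for the SD; axes start at 0 and differ between genes. The trap library of batch 1 is the highest of the 3 trap libraries for all 7 genes, and Slfn8 and Slfn3 show no overlap between trap and mast cell supernatant.

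Set against untreated cells, the members' place depended on the batch. These contrasts share the trap, mast cell supernatant and untreated libraries with each other and are not independent. Between trap supernatant and no treatment, 1.72% of genes were called (224 of 13061) and 0 of 7 members; with replicates 1 to 3 of each group alone (9 libraries) and the replicate number as a block, 36 genes were called. The log2 difference of Slfn8 was 0.14 ± 0.25 and that of Slfn5 0.23 ± 0.23; without the trap library of batch 1 they were -0.08 and 0.01. In batch 1 all 7 members were higher with trap supernatant than without treatment, by 0.53 (Slfn9) to 1.56 (Slfn1) on the log2 scale, with 0.95 for Slfn8, 0.93 for Slfn5 and 0.56 for Slfn2. In batch 3, Slfn3 at 0.10 was the only member with a positive difference, and Slfn8 and Slfn5 both stood at -0.53. Slfn3 was also the only member higher in all 3 batches (0.72, 0.23 and 0.10).

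Between mast cell supernatant and no treatment, 4.79% of genes were called (of 13061; 84 genes in the 9 libraries of replicates 1 to 3 with the replicate block) and 0 of 7 members by edgeR. The log2 difference, mast cell supernatant minus untreated, was -0.68 ± 0.22 for Slfn8, -0.46 ± 0.20 for Slfn5, -0.43 ± 0.15 for Slfn3 and -0.43 ± 0.15 for Slfn9. By batch, that of Slfn8 was 0.07, -0.86 and -1.22, and that of Slfn5 was 0.10, -0.46 and -0.97. Slfn2 went the same way, with 0.52 in batch 1, -0.09 in batch 2 and -0.68 in batch 3. Lower in each batch were Slfn3 and Slfn9, 2 of 7 members, against 16.9% of all genes; with this contrast too used in choosing the set, nothing is read from that share. For Slfn2, Slfn5 and Slfn8, batch 1 and batch 3 thus differed in the level of both supernatants relative to untreated cells. The same held for Slfn1, at 0.53 and -0.95 with mast cell supernatant and 1.56 and -0.23 with trap supernatant. Slfn9 stood at -0.18 and -0.83 with mast cell supernatant and at 0.53 and -0.46 with trap supernatant. With mast cell supernatant, Slfn3 (-0.48 and -0.61) and Slfn4 (0.03 and -0.15) differed less between batches 1 and 3. Trap stayed above mast cell supernatant for Slfn1, Slfn3, Slfn5 and Slfn8 in each batch.

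**Figure D3:**
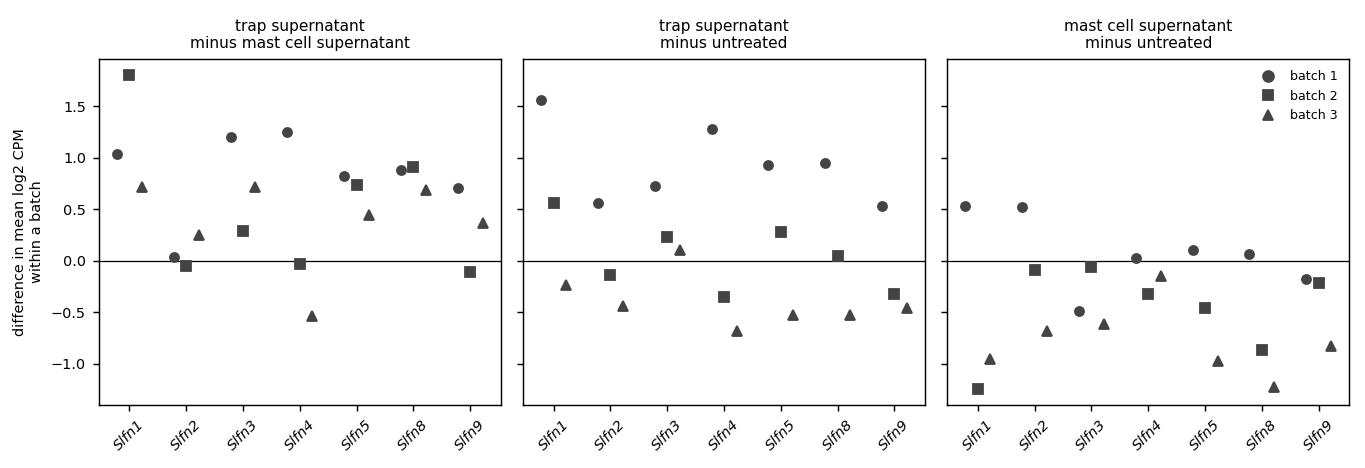
Difference in mean log2 CPM within each batch for the 7 members, in trap minus mast cell supernatant (left), trap supernatant minus untreated (middle) and mast cell supernatant minus untreated (right); each symbol is 1 batch. In the left panel Slfn1, Slfn3, Slfn5 and Slfn8 lie above 0 in every batch, whereas in the other panels most members lie highest in batch 1 and lower in batch 3, Slfn8 at 0.07 and -1.22 on the right.

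The untreated libraries were also set against each other by batch. Their levels entered the contrasts that chose the members, so the members' values are again a description. Among 6 libraries in 3 batches, 3 of 7 members (Slfn5, Slfn8 and Slfn9) passed edgeR's quasi-likelihood test adjusted over all genes, where 36.2% of 13045 genes did, and the family's share is near that of the transcriptome. Which members passed depended on single libraries: Slfn9 did not pass without untreated replicate 2 or 5, and Slfn1 and Slfn2 passed without untreated replicate 6. Slfn5 averaged 102, 100.1 and 162 CPM in batches 1, 2 and 3, and Slfn8 averaged 56.9, 74.3 and 89.3 CPM. Both were highest in batch 3, the batch where both supernatants stood below untreated cells for these genes. Slfn9 averaged 16.0, 21.9 and 13.95 CPM, highest in batch 2. Slfn2 averaged 605, 640.3 and 675 CPM. Marker sums of other cell types differed between the same batches. The 12 neutrophil genes summed to 176 and 176 CPM in the untreated libraries of batch 1, 118 and 135 CPM in batch 2 and 377 and 422 CPM in batch 3, with 10 of 10 measured genes called. The 6 fibroblast genes summed to 11.8 and 15.1 CPM in batch 1, 145 and 139 CPM in batch 2 and 8.44 and 16.8 CPM in batch 3, with 3 of 3 measured genes called. The 10 macrophage genes summed to 18678 and 18994 CPM in batch 1, 11877 and 12122 CPM in batch 2 and 9299 and 10125 CPM in batch 3, with 8 of 10 called. The part of these differences in the Schlafen levels was not tested.

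Other genes of the interferon pathway were taken from fixed lists, compiled with earlier results of these data known. Among ligands, none of 10 reached the filter. Ifnb1, the interferon-beta gene, had 17, 6 and 0 counts in the trap libraries of batches 1, 2 and 3, 7, 10, 5, 0 and 1 counts in mast cell supernatant libraries and 4 counts over all 6 untreated libraries. Of 8 measured receptors and kinases, 2 fell with mast cell supernatant relative to no treatment, and none was called in the other 2 contrasts. These were Ifnar1, a chain of the type I interferon receptor (-0.27 ± 0.05, adjusted p = 0.00433 by edgeR, lower in 3 of 3 batches), and Ifngr2, a chain of the interferon-gamma receptor (-0.26 ± 0.05, adjusted p = 0.00382 by edgeR, lower in 3 of 3 batches). Of 8 transcription factors and 6 feedback genes, edgeR called none between groups, while DESeq2 called 1 of the factors between trap and mast cell supernatant and 2 between mast cell supernatant and no treatment.

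Of 31 measured interferon-stimulated genes, 0 were called by edgeR in any contrast between groups. Between trap and mast cell supernatant 30 of 31 had a positive log2 difference, with a median of 0.59, beside 0.000894 over all genes. By edgeR, 21 had an unadjusted p under 0.05, as did 569 of all 13061 genes. DESeq2 called 2, and 11 of all genes. The list was compiled with earlier results known, so nothing is read from these counts. Relative to no treatment the median of the 31 genes was 0.40 with trap supernatant and -0.33 with mast cell supernatant. By batch, that of trap supernatant was 0.998, 0.57 and -0.39 and that of mast cell supernatant 0.34, -0.50 and -0.81, with the highest value in batch 1 and the lowest in batch 3. In trap supernatant minus untreated, all 7 Schlafen members had that order of batches too. In mast cell supernatant minus untreated, Slfn1 (0.53, -1.24 and -0.95), Slfn3 (-0.48, -0.05 and -0.61) and Slfn4 (0.03, -0.32 and -0.15) did not. The share of all genes with that order was not counted, so nothing is read from it. Ifit1, which binds foreign RNA ends, had a log2 difference between trap and mast cell supernatant of 1.93 ± 0.51, and Rsad2, the antiviral enzyme viperin, 1.83 ± 0.58. Usp18, which removes ISG15 from proteins and damps interferon signalling, had 1.18 ± 0.47. Isg15, the ubiquitin-like modifier, had 0.87 ± 0.47 and Irf7, a transcription factor of the interferon response, 0.25 ± 0.35. None of these 5 was called between groups, and Irf7 alone among them had a negative difference in batch 3 (-0.23). Among untreated libraries alone, edgeR called 22 of the 31 interferon-stimulated genes between batches, beside 36.2% of 13045 genes. Untreated means in batches 1, 2 and 3 were 32.2, 28.1 and 64.3 CPM for Ifit1 and 80.9, 62.1 and 147 CPM for Rsad2. All 5 genes were highest in batch 3. These levels enter the differences of both supernatants from untreated cells, and their part in the order of batches was not tested. Of 10 measured genes of the immediate response to lipopolysaccharide, edgeR called 0 between groups and all 10 among untreated batches. Between mast cell supernatant and no treatment, DESeq2 called 1 and limma-voom 2 of them. Between trap supernatant and no treatment, limma-voom called 1. The median log2 difference of the 10 genes from untreated cells was 2.72, 0.46 and -0.02 with trap supernatant in batches 1, 2 and 3. With mast cell supernatant it was 3.11, 1.65 and -0.87. A list of 14 genes of cell division and quiescence held mostly division genes, such as Mki67, Top2a and Cdk1. Of these 14, edgeR called 1 between mast cell supernatant and no treatment, the transcription factor Klf2, which rose (1.12 ± 0.17, adjusted p = 0.00274 by edgeR, higher in 3 of 3 batches). In that contrast 6 of the 14 had an unadjusted p under 0.05 by edgeR, as did 2501 of all 13061 genes.

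The genes most like the mean of the family, by Pearson correlation of batch-centred log2 CPM over 14 libraries, were Oas1g (0.963), Usp18 (0.957), Ifit2 (0.956), Irgm1 (0.951) and Ifi206 (0.948). Libraries of a group share their treatment, and these values only rank patterns. The mean gave each member equal weight, so Slfn1 and Slfn4, with few counts, weighed as much as Slfn2. The members did not all resemble the same genes. Slfn5 and Slfn8 were nearest to each other among pairs of members (0.962), and the genes most like them overlapped: Ifih1 (0.974), Helz2 (0.973) and Parp14 (0.972) for Slfn5, and Parp14 (0.970), Gm12250 (0.970) and Ifih1 (0.963) for Slfn8. Slfn2 was most like Sap30 (0.979), Gch1 (0.972) and H2-K2 (0.960), and its correlation with Slfn3, at 0.286, was the weakest between any members. Slfn1 was most like Ifit3 (0.921), Oas1g (0.918) and Trim30a (0.918). For Slfn3 the nearest genes were Podnl1 (0.927), Pigg (0.910) and Fam210a (0.871), for Slfn4 A530032D15Rik (0.868), Phf11a (0.828) and Ms4a4c (0.821), and for Slfn9 Inpp5b (0.914), Nfatc2ip (0.911) and Tent4a (0.902).

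The family's pseudogene Slfn10-ps, which lies between Slfn8 and Slfn2 and is no member, had 23.9, 27.1 and 22.9 CPM in trap libraries, 22.69 and 19.0, 26.7, and 17.8 and 25.3 CPM in mast cell supernatant libraries of batches 1, 2 and 3, and 18.5 to 27.1 CPM in untreated libraries. Its log2 difference between trap and mast cell supernatant was 0.10 ± 0.11, beside 0.82 ± 0.26 for its neighbour Slfn8. Slfn14, farther along the chromosome, and the Schlafen-like gene Slfnl1 had 1 and 8 counts in all libraries together. Slfn5os, annotated antisense to Slfn5, had 2 counts in all; whether the counting used the strand of the reads is not given in the sources used.

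**Figure D4:**
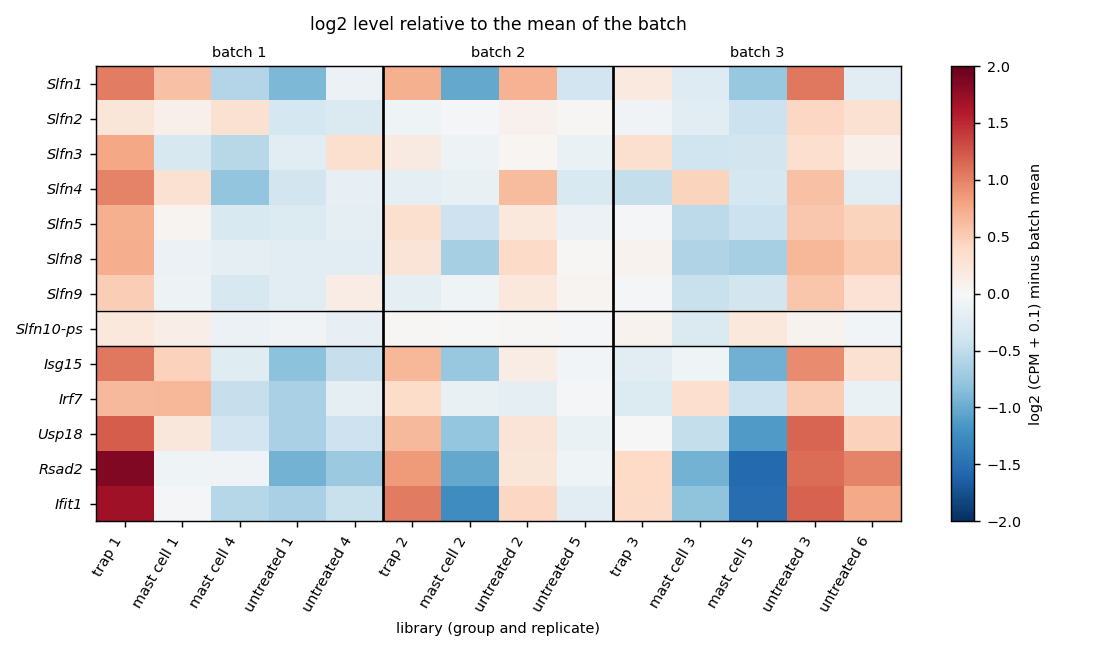
Log2 level (CPM with 0.1 added) minus the mean of the batch, for the 7 members, Slfn10-ps and 5 interferon-stimulated genes (rows) in 14 libraries (columns, ordered within each batch as trap supernatant, mast cell supernatant, untreated; red, above the batch mean). The trap library is red for Slfn5, Slfn8 and Ifit1 in batches 1 and 2, while in batch 3 the untreated libraries are the reddest, and Slfn2 and Slfn10-ps are the palest rows.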

How the data were processed

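Polyadenylated RNA of 14 macrophage libraries had been sequenced from stranded libraries, per the labels' protocols. The deposited values are raw read counts per gene, made by the authors with featureCounts 2.0.0 against GRCm38, per the submitters' processing notes; the sources used here give no aligner, annotation release or strand setting. Columns were matched to samples by abbreviated group names, replicate numbers and the number of libraries per group. Of 47937 Ensembl identifiers, 47224 matched a symbol. Counts were fitted in R 4.3.3 with edgeR 4.0.16, with group and batch as terms, and untreated libraries alone with batch as the term. Settings were filterByExpr, TMM factors, the robust quasi-likelihood test and Benjamini-Hochberg adjustment over all genes, with a threshold of 0.05. The procedure was tested on simulated counts, which held no batch effects in the comparisons between groups. Levels are CPM scaled by TMM factors, and log2 levels use a prior count of 1. Alternatives were DESeq2 1.42.0, limma 3.58.1 (voom), other scaling, no filter, no batch term, a replicate block, single batches, left-out libraries and summed paralogs. Batch labels match the numbers of replicates 1 to 3 across groups, so same-numbered libraries share a batch: their deviations correlated at 0.298 to 0.71 (9 pairs), those of different numbers at -0.592 to 0.173 (18 pairs). Libraries of one group and batch differed by more than counting noise (chi-square per degree of freedom 1.82 to 15.2), and none were identical. Named were all members and relatives, a fixed panel of interferon genes, up to 2 called genes (mean 5 CPM or more) per list, direction and contrast, and the 5 genes most like the family mean and 3 most like each member. Members and lists were chosen with earlier results of these data known. Promoter windows are those of RefSeq, searched on both strands; 1 panel gene and 1 motif are not reported here.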

Additional observations from a re-analysis of the deposited data

Results flagged for a closer look

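Slfn1 had 3.76 CPM in the untreated library of replicate 3 (batch 3), apart from the other 5 untreated libraries, which lay between 0.69 and 1.72 CPM. The gap to the nearest of them was 0.663 of the group's whole range. In all, 14 groups (7 members in mast cell supernatant and untreated libraries) were examined in this way, and chance marks about 1 in 20.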

How the results depend on the processing

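DESeq2 called 11 genes between trap and mast cell supernatant and 409 between trap supernatant and no treatment. Without the batch term, 15 genes were called between trap supernatant and no treatment and 62 between mast cell supernatant and no treatment; without batch 2, the counts were 88 and 231. With a replicate block (replicates 1 to 3 of each group, the paired libraries of a batch), they were 36 and 84, and 0 between trap and mast cell supernatant; this paired fit also used fewer libraries, 9 of 14, and called no member. Leaving out 1 library at a time gave 0 to 3 genes between trap and mast cell supernatant, with 3 without trap replicate 2 and 1 without mast cell supernatant replicate 2. It gave 97 to 280 genes between trap supernatant and no treatment (137 without trap replicate 1, 97 without trap replicate 3, 134 and 131 without untreated replicates 2 and 5), 449 to 751 between mast cell supernatant and no treatment, and 2278 to 7592 among untreated batches. Where this left 1 library in a group or batch, it was assumed to vary like the others. The log2 difference between trap and mast cell supernatant kept its sign in Slfn1, Slfn3, Slfn5, Slfn8 and Slfn9 under 22 alternatives that pooled batches; that of Slfn1 was 0.08 after its counts were summed with the far more abundant Slfn2. Between mast cell supernatant and no treatment, DESeq2 called 884 of 13061 genes, Slfn8 among them. Slfn9 was called between mast cell supernatant and no treatment without untreated replicate 1. The causes of these changes were not tested, and Slfn1 and Slfn4 are limited by their low counts.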
